A study of Zea mays with 6 samples.

Results

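Sucrose synthase cleaves sucrose reversibly into fructose and UDP-glucose, and so links the sugar a leaf makes or imports to cell wall, starch and respiratory metabolism. Plants hold several genes for the enzyme. In maize the best known are shrunken1 (sh1), whose product predominates in the endosperm of the kernel and whose loss gives shrunken kernels, and sus1, which is active in many tissues. In leaves the enzyme is known mainly from veins, where it is found in phloem companion cells, and from growing tissue.

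The genes described here are the 4 sucrose synthase genes of a fixed list of identifiers, taken from 44351 genes in all: Zm00001d047253, listed as sus1, Zm00001d045042, listed as sh1, and Zm00001d029087 and Zm00001d029091, both listed as sus2-like. These names came with the list. The expression tables give identifiers only, and a RefSeq gene table (Zm-B73-REFERENCE-NAM-5.0) held 0 of the 4 identifiers, although 3 of 8 sucrose synthase symbols searched for (sus1, sus2 and sh1) are in it. All 4 genes passed the filter on low values, a mean of at least 0.5 FPKM, together with 22940 other genes.

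Leaves of the maize inbred line KN5585 were sampled in 2 groups of 3 libraries. The transgenic group was 1 strain overexpressing ZmSUS1, according to the series title, and the control group was its non-transgenic counterpart in the same line. The sources used here do not name the promoter of the transgene. Drought lasted 3 days according to the label of each library and 5 days according to the series text, for both groups, but the treatment label of the control libraries reads normal; if the control plants were watered, transgene and drought cannot be told apart. Values are FPKM, fragment counts divided by the length of the gene and by the library's mapped fragments, so levels of different genes can be set side by side per length. The series text calls the libraries of a group biological replicates, but no label ties them to separate plants, so the spread that enters the p-values may in part be technical.

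The make-up of the transcripts of the 4 listed sucrose synthase genes differed between the groups. Other genes of the family could not be located by name, so the shares and sums below cover these 4 only. The sus1 gene was 4.29-fold higher in transgenic leaves, and the other 3 genes were lower, by 1.72-fold for sh1, 9.65-fold for Zm00001d029087 and 13.48-fold for Zm00001d029091, as ratios of mean deposited FPKM. All 4 differences passed the test (limma on log2(FPKM + 1), Benjamini-Hochberg adjusted p over 22944 genes of at most 0.05). Against this stands a broad background: 84% of all tested genes were called, 16.3% as higher and 67.7% as lower, so a call or a direction does not by itself set a gene apart. The median log2 difference of all tested genes was -0.56. Median-of-ratios scaling, which brings that median to -0.02, was therefore applied as well, and the groups are compared below under both; after it 73.2% of genes were called, 36.3% as higher and 36.9% as lower. Of all calls, 80.6% were lower as deposited and 50.4% after scaling.

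The gene listed as sus1 was higher in every library labelled transgenic than in any control library. Its pairing with the overexpressed ZmSUS1 of the series title rests on the list alone. Zm00001d047253 (sus1) stood at 135.9, 135.3 and 138.2 FPKM in the transgenic libraries, against 32.2, 32.1 and 31.1 FPKM in the control libraries. The groups were far apart, and the libraries within each lay close together. The mean was 136.5 ± 1.55 FPKM in transgenic and 31.8 ± 0.59 FPKM in control leaves (SD, n = 3 each). The log2 difference was 2.07 ± 0.028 (SE), with a 95% confidence interval of 2.0 to 2.13 (limma adjusted p = 1e-10). After scaling it was 2.74 ± 0.029 (SE, limma adjusted p = 1.8e-11), a 6.90-fold ratio of scaled means. Of the 22944 tested genes, 255 (1.11%) had a larger difference as deposited and 218 (0.95%) after scaling. By rank of FPKM among all genes of a library, sus1 moved up to places 603 to 618 in transgenic leaves, against places 4109 to 4283 in control leaves. Each table holds 1 value per gene, so transcripts of the transgene and of the plant's own gene are not separated in it.

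The gene listed as sh1, the endosperm isoform, was well expressed in these leaves and differed least. Zm00001d045042 stood at 48.1, 47.0 and 46.2 FPKM in the transgenic libraries, against 79.7, 81.2 and 82.0 FPKM in the control libraries. The groups did not overlap, as in 84.5% of the tested genes. The log2 difference was -0.77 ± 0.029 (SE), with a 95% confidence interval of -0.84 to -0.70 (limma adjusted p = 4.1e-08), which is -0.21 from the median of all tested genes. A lower difference was seen in 37.1% of the tested genes and a higher one in 62.9% as deposited. The same shares were 44.8% and 55.1% after scaling. After scaling the values were 61.2, 59.3 and 58.7 scaled FPKM in transgenic and 62.9, 64.3 and 64.5 scaled FPKM in control libraries. The groups were still without overlap, as in 76% of the tested genes, but only 1.07-fold apart. The scaled log2 difference of -0.10, with a 95% confidence interval of -0.16 to -0.03, passed the test at a limma adjusted p of 0.016. That call was lost without transgenic replicate 2 (-0.09, limma adjusted p = 0.051) and without transgenic replicate 3 (-0.08, limma adjusted p = 0.065). The size of the sh1 difference thus depends on the scaling, whereas its sign was negative in both.

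The 2 genes listed as sus2-like fell in transgenic leaves by far more than the median of all genes. Zm00001d029091 stood at 14.3, 15.1 and 14.6 FPKM in the transgenic libraries, against 206.0, 196.8 and 189.5 FPKM in the control libraries. No transgenic library came near the control range. The log2 difference was -3.66 ± 0.039 (SE), with a 95% confidence interval of -3.75 to -3.57 (limma adjusted p = 2.9e-11), and -3.0 after scaling (limma adjusted p = 6.3e-11). Only 83 tested genes (0.362%) had a lower difference as deposited, and 101 (0.44%) after scaling. Its rank fell to places 5796 to 6047 in transgenic leaves, against places 395 to 432 in control leaves, where it was the most abundant of the 4 genes.

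Zm00001d029087 stood at 3.67, 3.36 and 3.23 FPKM in the transgenic libraries, against 33.2, 30.3 and 35.5 FPKM in the control libraries. It was the least abundant of the 4 in transgenic leaves, and its groups did not overlap. The log2 difference was -2.94 ± 0.071 (SE), with a 95% confidence interval of -3.11 to -2.78 (limma adjusted p = 3.3e-09), and -2.34 after scaling (limma adjusted p = 1.2e-08). A lower difference was seen in 196 tested genes (0.854%) as deposited and in 221 (0.963%) after scaling. The log2(FPKM + 1) scale understates the change of so low a gene, and with a pseudocount of 0.1 the log2 difference was -3.23. In all 4 genes the groups did not overlap as deposited or after scaling. The same held for 84.5% of the tested genes as deposited, 16.6% higher and 67.9% lower, and for 76% after scaling, 37.5% higher and 38.4% lower.

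**Figure D1:**
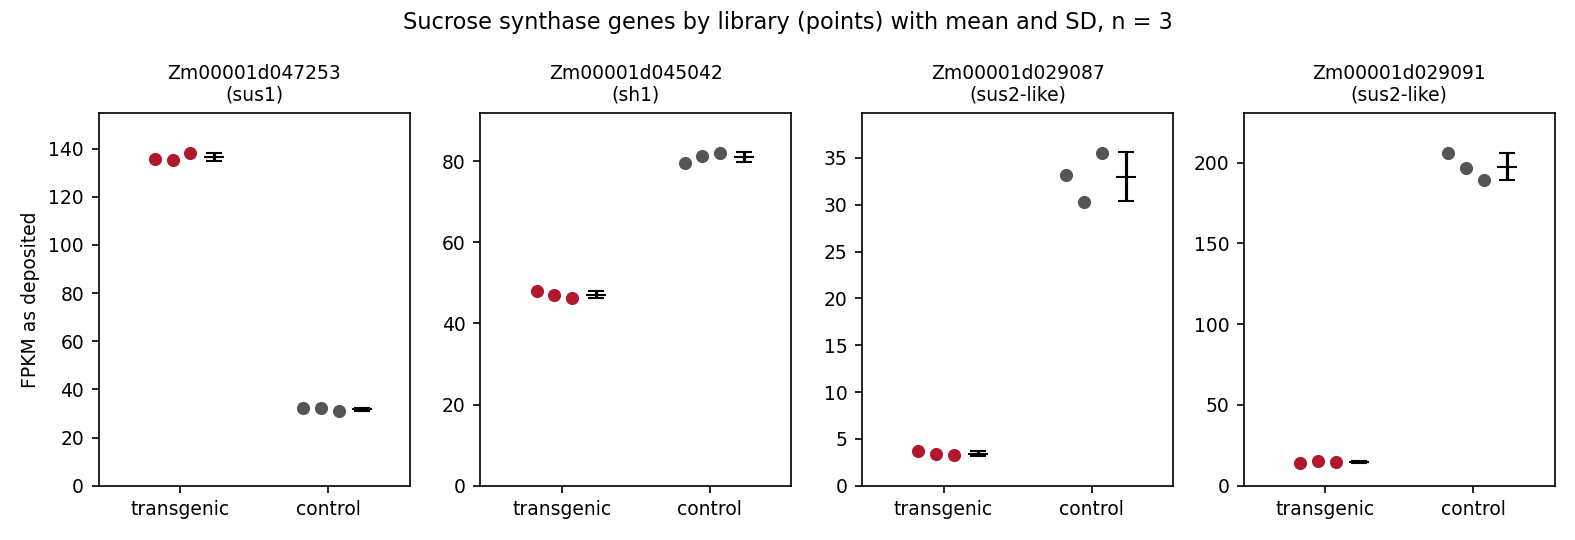
Deposited FPKM of each sucrose synthase gene (vertical axis, starting at 0, with its own range in each panel) in the 3 transgenic and 3 control libraries; points are libraries and the bar beside them is the mean with its SD. The sus1 gene stands at 135.3 to 138.2 FPKM in transgenic and 31.1 to 32.2 FPKM in control libraries, and the other 3 genes are lower in every transgenic library than in any control library.

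Compared with all genes, sus1 lay near the top of the distribution of differences, both sus2-like genes lay near its bottom, and sh1 lay in its bulk. Measured from the median of all tested genes, the log2 differences as deposited were 2.63 for sus1, -0.21 for sh1, -2.38 for Zm00001d029087 and -3.11 for Zm00001d029091. After scaling the same distances were 2.75, -0.08, -2.32 and -2.99. A single factor per library shifts all genes nearly alike, so these distances had to be close under both scalings and are no separate support. The differences from 0 moved with the scaling.

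**Figure D2:**
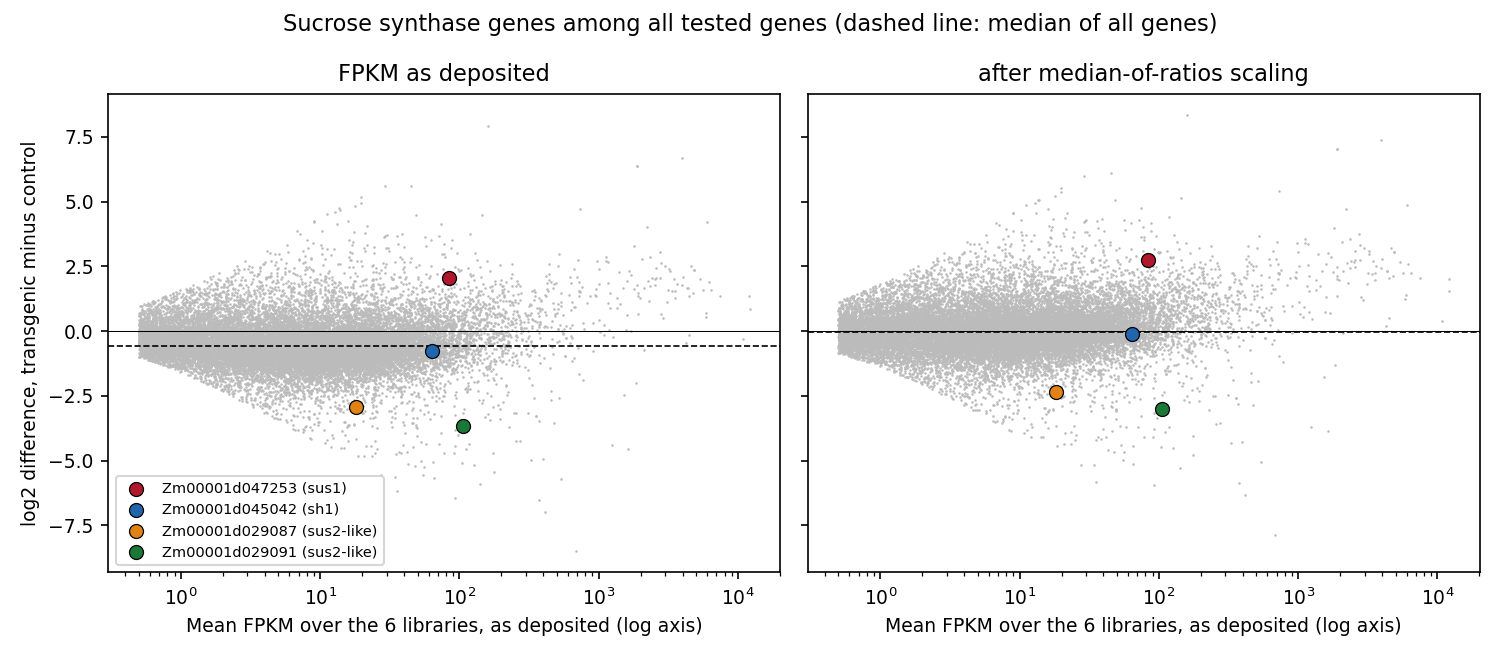
Log2 difference, transgenic minus control (vertical axis), against mean deposited FPKM over the 6 libraries (horizontal log axis) for the 22944 tested genes (grey) and the 4 sucrose synthase genes (coloured), as deposited on the left and after median-of-ratios scaling on the right; the dashed line is the median of all genes. The sus1 gene lies above and both sus2-like genes below most genes of their level, and sh1 lies close to the dashed line in both panels.

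The order of the 4 genes differed between the groups. In transgenic leaves sus1 was highest, followed by sh1, Zm00001d029091 and Zm00001d029087, and no neighbours in that order overlapped. In control leaves Zm00001d029091 was highest and sh1 second, at 197.4 ± 8.26 and 81.0 ± 1.20 FPKM (SD, n = 3 each). The remaining 2 genes of the control leaves, Zm00001d029087 at 33.0 ± 2.64 FPKM and sus1 at 31.8 ± 0.59 FPKM (SD, n = 3 each), could not be ordered. Their values overlapped, and the FPKM ratio of sus1 to Zm00001d029087 was 0.969, 1.06 and 0.875 in the 3 control libraries. In the transgenic libraries that ratio was 37.0, 40.3 and 42.8.

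Expressed as shares of the summed FPKM of the 4 genes, sus1 made up 67.7% ± 0.57 in transgenic and 9.3% ± 0.14 in control leaves (SD, n = 3 each). Zm00001d029091 showed the opposite pattern, with 7.3% ± 0.23 in transgenic and 57.5% ± 1.35 in control leaves. The share of Zm00001d029087 was 1.7% ± 0.11 in transgenic and 9.6% ± 0.82 in control leaves. The share of sh1 was 23.8%, 23.4% and 22.9% in the transgenic libraries and 22.7%, 23.9% and 24.3% in the control libraries. These overlap, so the sh1 share did not differ beyond the spread between libraries. Shares within a library do not depend on scaling between libraries.

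**Figure D3:**
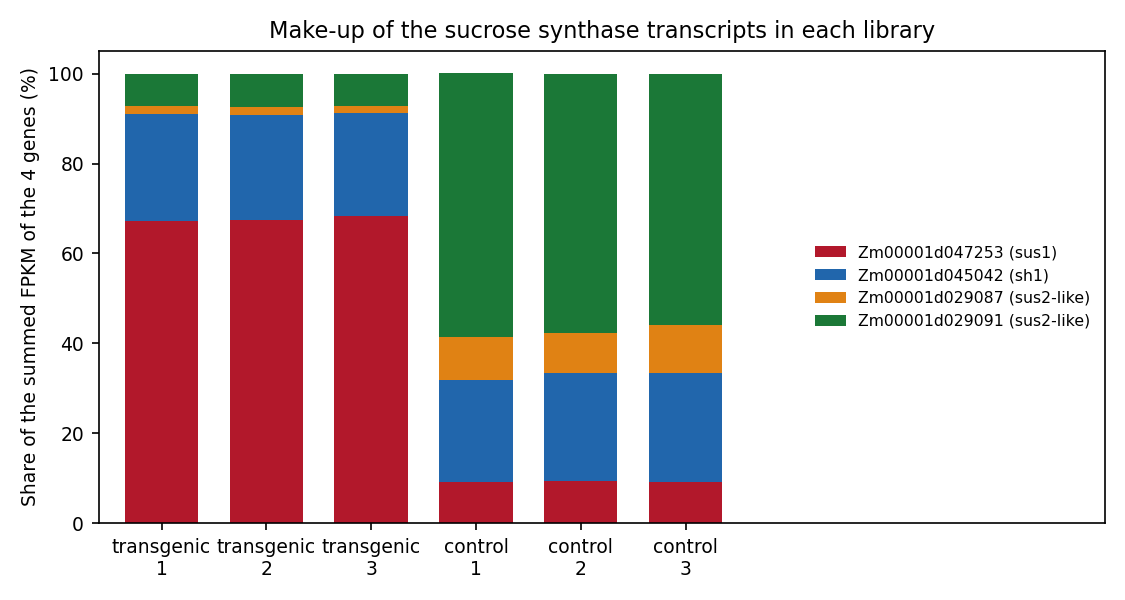
Share of each gene in the summed FPKM of the 4 sucrose synthase genes (vertical axis, percent) in each of the 3 transgenic and 3 control libraries (bars). The sus1 segment takes 67.3% to 68.3% in transgenic and 9.2% to 9.4% in control libraries, Zm00001d029091 takes 7.1% to 7.5% in transgenic and 56.0% to 58.7% in control libraries, and the sh1 segment is of similar height in all bars.

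The summed level of the 4 genes was lower in transgenic leaves as deposited, and close to the control after scaling. The sum was 201.9, 200.7 and 202.3 FPKM in the transgenic libraries, against 351.0, 340.4 and 338.2 FPKM in the control libraries, a ratio of 0.588. After median-of-ratios scaling it was 256.9, 253.1 and 256.7 scaled FPKM in transgenic and 277.3, 269.3 and 265.8 scaled FPKM in control libraries, a ratio of 0.944. Without sus1, the other 3 genes summed to 65.2 ± 1.02 FPKM in transgenic and 311.4 ± 6.48 FPKM in control leaves (SD, n = 3 each), 4.78-fold lower, or 2.97-fold lower after scaling. In whole leaves, fewer cells of a type and less RNA per cell cannot be told apart in such values. Leaf cell type markers were not analysed here, since 0 of 9 marker symbols could be paired with an identifier of the tables.

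Ratios between 2 genes of the same library, which no scaling of libraries changes apart from the pseudocount, were compared for all 6 pairs. The largest contrast was between sus1 and Zm00001d029091. Their log2 ratio was 3.14 ± 0.047 in transgenic and -2.60 ± 0.039 in control leaves (SD, n = 3 each), a difference of 5.73. The log2 ratio of sus1 to sh1 was 1.51 ± 0.041 in transgenic and -1.32 ± 0.045 in control leaves (SD, n = 3 each), a difference of 2.84.

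The smallest contrast was between the sus2-like genes. The FPKM ratio of Zm00001d029091 to Zm00001d029087 was 3.89, 4.49 and 4.51 in the transgenic libraries, against 6.21, 6.50 and 5.33 in the control libraries, so the more abundant gene was lower by the larger factor. In each of the 6 pairs the transgenic and control ratios did not overlap. The pairs are drawn from only 4 genes, and the share of such pairs among all genes was not computed. Of single tested genes, 84.5% did not overlap as deposited and 76% after scaling, but levels of single genes are an unlike measure. Whether separated ratios set these pairs apart was therefore not tested. The exact permutation test gave p = 0.1 for each pair (two-sided, 0.1 also after Benjamini-Hochberg adjustment over the 6 pairs). This is the smallest p that 3 against 3 libraries can give, so no pair could pass a threshold of 0.05.

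The replicate spread was small for sus1 and sh1. The coefficient of variation of sus1 was 1.14% in transgenic and 1.86% in control leaves, where genes within 1.5-fold of its level had medians of 2.08% and 3.56%. For sh1 it was 1.98% in transgenic and 1.48% in control leaves, with medians of 3.14% and 2.62% in genes of its level. In control leaves both sus2-like genes lay above the median of genes of their level. The values were 7.99% against 3.52% for Zm00001d029087 and 4.18% against 2.04% for Zm00001d029091. In transgenic leaves they lay below it, at 6.61% against 9.39% for Zm00001d029087 and 2.86% against 4.92% for Zm00001d029091. Each spread rests on 3 libraries, and its place among genes of its level was not tested. None of these spreads approached the differences between the groups as deposited.

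Few genes shared the level and difference of sus1 or of the sus2-like genes. Likeness was measured as the Euclidean distance between log2(FPKM + 1) profiles over the 6 libraries, against 22940 other genes. Within a distance of 0.5 there were 5 genes for sus1, 160 for sh1, 9 for Zm00001d029087 and 1 for Zm00001d029091. Such counts depend on how common a level and a difference are among all genes. They follow in part from the differences given above and are no separate support. The gene closest to sus1 was Zm00001d002052, at a distance of 0.244, with 130.6, 126.9 and 132.2 FPKM in transgenic and 34.5, 34.7 and 34.6 FPKM in control libraries. The one closest to Zm00001d029091 was Zm00001d011132, at a distance of 0.285, with 15.9, 16.3 and 16.6 FPKM in transgenic and 191.4, 186.1 and 183.2 FPKM in control libraries. Neither has a name in the tables. No other gene carried the same 6 values as any of the 4, although reads that similar genes share may have been split between them in a way the tables do not show.

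**Figure D4:**
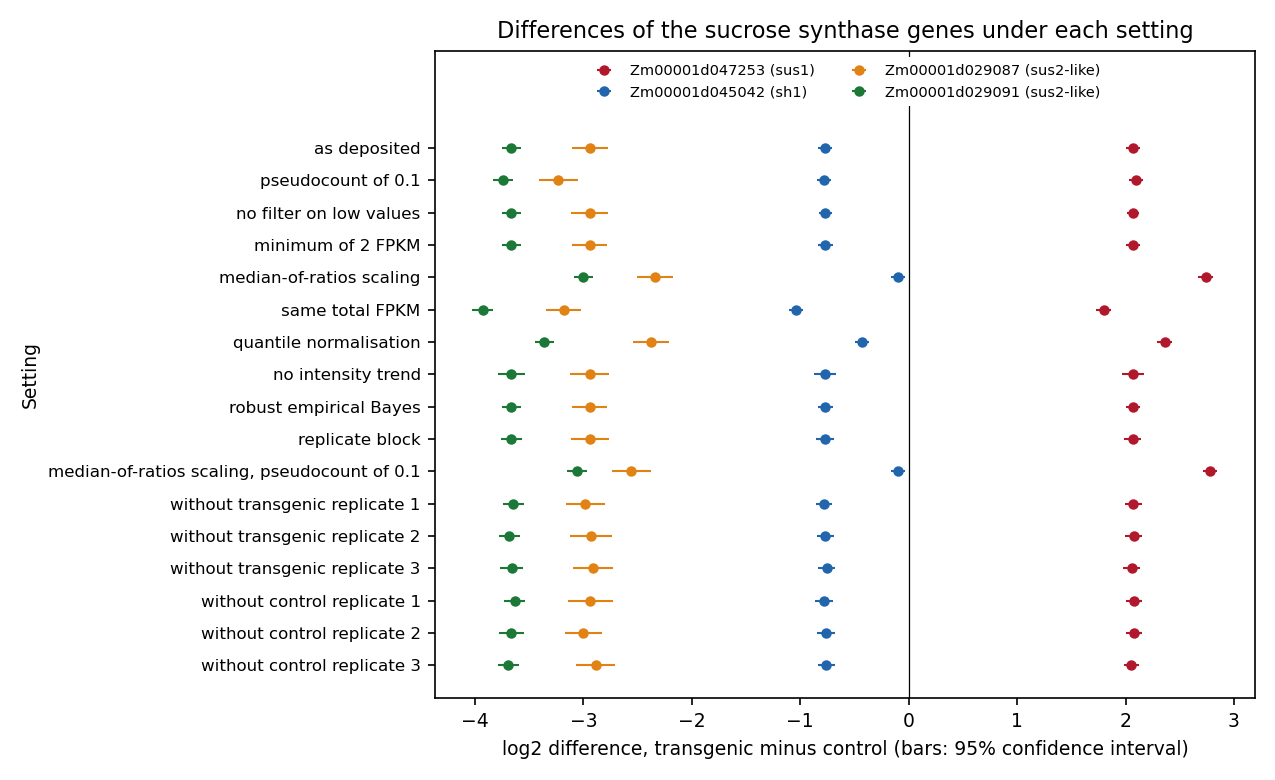
Log2 difference, transgenic minus control, with its 95% confidence interval (horizontal axis) for each sucrose synthase gene under the settings shown (rows). Not plotted are the threshold of 0.01 and the settings that combine median-of-ratios scaling with a library left out. The sus1 gene lies to the right of 0 and both sus2-like genes lie far to its left in every row; with the unplotted settings included, the ranges are 1.80 to 2.78 for sus1, -3.23 to -2.28 for Zm00001d029087, -3.93 to -2.97 for Zm00001d029091 and -1.04 to -0.08 for sh1, whose call is lost in 2 of the unplotted ones.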

How the data were processed

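The 6 libraries were made from total RNA of leaves with a SMARTER mRNA-Seq kit, per the labels' protocols. The authors deposited 1 table of FPKM per library, rounded to 2 decimals, per the file headers. Per the submitters' processing notes, DESeq2 (version and role unstated) and mm10, a mouse build, were involved, but the gene identifiers belong to maize. Aligner, counter, strandedness and maize build: not given in the sources used here. No coordinates were used.

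Summed FPKM was 829541 to 831082 in transgenic and 684047 to 689548 in control libraries. Depth in reads is unknown. For genes of 0.3 to 1.5 FPKM, ratios between libraries piled up at a relative depth of 1.02 for transgenic replicates 1 to 3 and of 1.00 for control replicates 2 and 3, against control replicate 1. For genes of 1 to 5 FPKM the transgenic libraries gave no common ratio, so relative depth between the groups was not derived. No counting interval was computed, and the tests hold no term for counting error.

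Genes averaging at least 0.5 FPKM (22944) entered a limma fit (version 3.58.1, R 4.3.3) of log2(FPKM + 1) on group alone. Variances were moderated along an intensity trend, tests were two-sided, and Benjamini-Hochberg adjusted p-values were held against 0.05. The procedure was tested on simulated data. These held few changed genes and no common shift between the groups, unlike the real libraries. Median-of-ratios factors, computed on FPKM, were 0.786 to 0.793 in transgenic and 1.264 to 1.272 in control libraries. Ratios of genes were compared with exact permutation tests in scipy 1.17.1, Python 3.11.15.

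The 4 genes and the lists were chosen with earlier results of these data known. By rule, all 4 genes are given in full, together with the gene closest in profile to sus1 and to the most abundant of the other 3. A list of 48 sucrose pathway symbols was not analysed here, since 0 could be paired with identifiers. Replicate numbers 1 to 3 occur in both groups, but the deviations of same-numbered libraries correlated at 0.002, -0.051 and 0.002, so they were not treated as paired. Alternatives covered the pseudocount, the filter, the scaling, the variance model, a replicate block, a threshold of 0.01 and each library left out.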

Additional observations from a re-analysis of the deposited data

How the results depend on the processing

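Over 23 alternatives each, sus1 and both sus2-like genes kept direction and call. Calls were common in the whole series, at 84% of tested genes before scaling and 73.2% under median-of-ratios scaling. How many other genes keep direction and call over the same alternatives was not computed, so a kept call does not set these genes apart. Changes of the filter, the variance model, the replicate block or the threshold cannot move a log2 difference, so only the call could change in those. The log2 differences ranged from 1.80 to 2.78 for sus1, from -3.23 to -2.28 for Zm00001d029087 and from -3.93 to -2.97 for Zm00001d029091. The sh1 gene kept its direction in all 23, from -1.04 with the same total FPKM to -0.08, and its call in 21. The call was lost in 2 that combine median-of-ratios scaling with a library left out, chosen after seeing the data: without transgenic replicate 2 (-0.09, limma adjusted p = 0.051) and without transgenic replicate 3 (-0.08, limma adjusted p = 0.065). Each setting of that kind holds fewer libraries, and the scaled sh1 difference is small in all of them. In the other 4 the call was kept, at a limma adjusted p of 0.015 to 0.039. What sets apart the 2 without the call was not tested. With quantile normalisation sh1 was at -0.43.

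The summed level of the 4 genes, transgenic over control, was 0.588 as deposited, 0.944 with median-of-ratios scaling, 0.485 with the same total FPKM, and 0.583 to 0.594 when single libraries were left out. With single libraries left out, the log2 differences as deposited ranged from 2.05 to 2.08 for sus1, -0.78 to -0.76 for sh1, -3.0 to -2.89 for Zm00001d029087 and -3.69 to -3.63 for Zm00001d029091. All 42 alternative values of the 6 within-library ratios kept their sign. Over all genes, 3749 higher and 15529 lower calls became 8333 higher and 8464 lower ones under median-of-ratios scaling, and 7758 higher and 8899 lower ones under quantile normalisation; both scalings centre the genes. With the replicate block, 19187 genes were called, against 19278 without it; the block changed no call of the 4 genes, and no transgenic library correlated best with the control library of its number. Depth in reads is unknown, and the fragments behind the lowest values, 3.23 to 3.67 FPKM for Zm00001d029087 in transgenic leaves, could not be counted.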
